A study of Drosophila melanogaster with 30 samples.

Results

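A chromatin loop brings together 2 sites of a chromosome, its anchors, that lie apart along the DNA. Long loops are taken here as those whose anchor starts lie at least 30 kb apart in the authors' loop lists for Drosophila melanogaster embryos and wing discs. The rule keeps 104 of 186 embryo loops and 108 of 209 disc loops, 212 of 395 in all. It uses positions and no contact value, although the loops themselves were called by the authors from contact maps, and it was applied to each tissue apart.

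GAGA-associated factor (GAF), the product of Trithorax-like (Trl), is a zinc finger protein that binds GA-rich DNA. Through its POZ domain GAF molecules bind each other, and its glutamine-rich Q domain lies at the other end of the protein. In flies, many loops join genes of a duplicated pair or tether a promoter to a distant element, so that a long loop can bring together regulatory DNA of genes that are far apart on the chromosome arm.

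The embryo maps came from animals aged 2 to 2.5 h. In 4 libraries GAF was depleted by deGradFP, a system that sends GFP-tagged proteins to degradation, and 4 control libraries carried GAF tagged with sfGFP (sfGFP-GAF(N) control). How the degradation system was driven is not given in the sources used here, nor whether the embryo libraries came from separate collections, so the spread behind embryo p-values may be technical. The disc maps came from homozygous wandering larvae with Halo-tagged GAF, 90 discs per replicate: full length (Halo-Trl), without the POZ domain (delta-POZ) or without the Q domain (delta-Q), with n = 2 libraries each. RNA-seq of the same 3 disc genotypes, 30 discs per replicate, had n = 3 libraries each. All 3 disc genotypes carry the Halo tag, and what a deletion does and what its line's background does cannot be told apart.

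Embryo libraries held 1715 to 7347 contacts over all loops and disc libraries 23944 to 31995, so single embryo loops rest on few contacts. GAF-deGradFP 4 stood apart from the other depleted libraries, at 2.60 to 3.85 for chi-square over its degrees of freedom, where the others gave 1.36 to 1.44 among themselves. Controls 2 and 3 differed by about as much as sampling noise gives (1.08 for chi-square over its degrees of freedom, p = 0.204), where the other control pairs gave p of 0.0301 or less. Control 3 is the shallowest library, at 1715 contacts, so both were kept as separate samples, and the values with them summed stand in the closing section. The paired libraries of each disc genotype also differed by more than sampling noise gives. Chi-square over its degrees of freedom was 1.97 in Halo-Trl, 1.79 in delta-POZ and 1.93 in delta-Q (chi-square p of 1.57e-11 or less). The RNA libraries held 57673928 to 85575887 reads in genes. Their 7 wing disc markers summed to 2316 to 2898 CPM (reads of a gene scaled to the library's total) in every library. Genes of other fates (ey, gl and Abd-B) summed to 0.162 to 1.19 CPM in 8 libraries and to 6.25 CPM in delta-POZ 2, with Abd-B at 0 in all. Gene-level RNA counts do not show which domain of GAF is missing, and GAF protein was not analysed here, so the labels were not checked against the targeted gene.

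Long loops ran from 30.4 to 380.4 kb in embryos, with a median of 51.6 kb, and from 30.4 to 286.8 kb in discs, with a median of 57.4 kb. Between 30 and 50 kb lay 49 embryo and 41 disc loops, between 50 and 80 kb 32 and 41, and at 80 kb or more 23 and 26. At least 100 kb were spanned by 11 embryo and 16 disc loops. The nearest embryo loops inside the limit were 1 of 30.4 kb, with a mean of 26.0 normalised contacts, and 2 of 30.8 kb, with 20.0 and 31.3. The nearest outside it were those of 29.6 kb (5.05) and 29.2 kb (29.4). In discs the nearest inside were 3 loops of 30.4 kb, with 81.1 to 267 normalised contacts, the highest of them labelled Ptp99. The nearest outside were Dscam1 at 29.2 kb (386) and 6 loops of 28.8 kb, with 65.7 to 148.

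**Figure D1:**
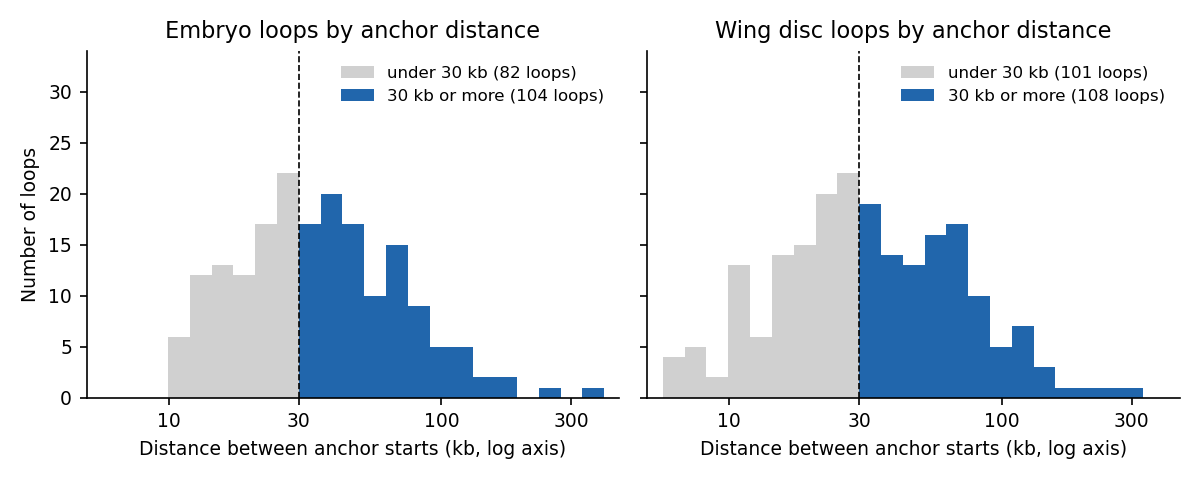
Number of loops (y axis) by the distance between anchor starts in kb (x axis, log scale) in embryos (left) and wing discs (right). Grey bars are loops under 30 kb (82 and 101) and blue bars the long loops (104 and 108); both lists run on without a gap across the dashed line at 30 kb.

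Every major arm carried long loops in both tissues. Chromosome X had 27 in each tissue, 2L had 25 in embryos and 24 in discs, 3L 20 and 27, and 3R 18 and 21. Arm 2R differed most from the short loops: of the disc loops on 2R, 9 were long and 29 short, whereas the embryo list had 14 long and 8 short there.

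The authors' tables name genes at 46 of the 104 long embryo loops and 72 of the 108 long disc loops. Exact labels from a list of patterning transcription factors stood at 17 embryo (16.3%) and 25 disc (23.1%) long loops. They stood at 10 of 82 (12.2%) and 16 of 101 (15.8%) short loops. Variant labels were not counted, such as eyaRA/eyaRB, dveRA/dveRB, biRA/biRB and doc2/doc1 at short embryo loops and Hr3-p2 and Hr3-p3 at short disc loops. The short shares are therefore too low to compare with the long ones. Among the long loops counted were the T-box pair H15/mid, the zinc finger pairs salm/salr and disco/disco-r, the BTB-domain pair bab1/bab2, and the homeodomain pair B-H1/B-H2. Exact labels of ligand, receptor and guidance genes stood at 7 embryo and 8 disc long loops, and at 0 of 82 and 2 of 101 short loops. Here too variant labels were not counted. These were Pvf3RA/Pvf3RB and Sog at short embryo loops, ser at a short disc loop, and thsRA/thsRB and ths-p1 at long loops, among others. The long loops counted included the FGF ligands pyr/ths, the Netrin guidance genes NetA/NetB, the rhomboid proteases ru/rho, which release EGFR ligands, and smal/Ddr, which encode discoidin-domain receptors. Genes of TOR signalling and growth control, the pathway that couples nutrients to growth, were named at 4 embryo and 3 disc long loops and at 0 short loops. All of these embryo loops but Myc/CG12535 join scyl, CG7560 and chrb and share anchors. The disc loops scyl/chrb and chrb share the chrb anchor, so these counts rest on few loci. All of these gene lists were chosen with earlier results of these data known. Their counts at long and short loops are therefore a description and no test of a difference. The remaining labelled long loops, 18 in embryos and 36 in discs, carried no exact member of these lists. Some of them name other transcription factors.

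Long loops shared anchors with other loops more often than short ones did. In embryos 23 of 104 (22.1%) had an anchor in common with another loop, against 10 of 82 short loops (12.2%), and in discs 27 of 108 (25.0%) against 9 of 101 (8.91%). In 7 embryo sets and 4 disc sets an outer long loop was divided by a middle anchor into 2 inner loops whose distances summed to the outer one within 2800 bp. The widest embryo set joins scyl to chrb over 239.6 kb, with CG7560 as middle anchor at 180.4 kb from scyl and 58.8 kb from chrb. The genes scyl and chrb both encode inhibitors of TOR signalling. Others join pyr to ths, B-H2 to B-H1, drm to odd through sob, and Doc3 to Doc1 through Doc2. The disc sets were those of nub/pdm2, H15/mid, pyr/ths and B-H2/B-H1. In discs the 286.8 kb loop on 3L, the longest of that list, has its anchors outside those of the 240.0 kb scyl/chrb loop and so encloses it. They lie at 11222101 to 11227100 and 11508901 to 11513900, against 11245301 to 11250300 and 11485301 to 11490300, in a genome build that the sources used here do not give.

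Both tissues held the same long loop, with anchors within 5 kb of each other, in 40 pairs, which is 38.5% of the long embryo loops and 37.0% of the long disc loops. For short loops the matched shares were 25.6% and 21.8%. They include H15/mid, ru/rho, knrl/kni, salm/salr, bab1/bab2, smal/Ddr, NetA/NetB, scyl/chrb and pyr/ths, and several loops that carry a label in the disc list and none in the embryo list, such as those of Scr, Antp, robo2, vvl and tna. Because the anchors are 1600 bp wide in the embryo list and 5000 bp in the disc list, contact levels were compared only within a tissue.

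Long loops had fewer contacts than short ones. The median long embryo loop had 20.0 normalised contacts per library, against 30.8 for short loops, and the median long disc loop 81.2 against 129. Among the long loops alone, contacts were only loosely ordered by distance (Spearman's rho -0.16 over 104 embryo loops and -0.20 over 108 disc loops, all measured in the same libraries). A long loop could be among the strongest: the 380.4 kb embryo loop on 3R, which has no label, ranged from 45.6 to 83.6 in the depleted libraries and from 67.6 to 110 in the controls. In discs the strongest long loop was that labelled Ggamma30A (48.4 kb, 411 to 447 over the 6 libraries), followed by that of emc (75.6 kb), which encodes a helix-loop-helix inhibitor of proneural proteins.

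The share of all loop contacts that fell in long loops was lower in GAF-depleted embryos and in delta-POZ discs. In embryos it was 48.1% ± 0.460 (SD, n = 4) after GAF depletion and 49.6% ± 0.392 (n = 4) in controls, and the 4 depleted libraries (47.5% to 48.6%) lay below the 4 controls (49.3% to 50.2%). In discs it was 41.2% ± 0.419 (n = 2) in Halo-Trl, 39.7% ± 0.488 in delta-POZ and 41.1% ± 0.415 in delta-Q. Both delta-POZ libraries, at 39.4% and 40.0%, lay below the Halo-Trl libraries, at 40.9% and 41.5%, while delta-Q, at 41.4% and 40.8%, overlapped Halo-Trl. Without every loop called in any comparison the embryo groups still did not overlap (47.1% to 48.2% against 48.6% to 49.9%), and the disc groups nearly met, at 38.7% and 39.4% in delta-POZ against 39.5% and 40.2% in Halo-Trl. These shares were not tested. They rest on raw contact counts with no background by distance removed. Changes at loops and a library-wide change of contacts with distance cannot be told apart in them. With the limit at 20 kb in place of 30 kb the embryo difference was -0.41 in place of -1.56 percentage points. The embryo groups then overlapped, at 70.0% to 70.4% after depletion and 69.9% to 71.2% in controls.

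To ask which long loops depend on GAF protein in the early embryo, the depleted libraries were set against the controls. A call is an edgeR adjusted p under 0.05 over all 186 loops of the table. Of the 104 long loops, 3 fell (CG7560/chrb, smal/Ddr and upd2/upd1) and 1 rose, an unlabelled 124.8 kb loop on 2L. Over all embryo loops 2.15% were called lower and 0.538% higher. The median log2 fold change of long loops was 0.03, against 0.06 for short and 0.04 for all loops; scaling over the same loops sets such medians near 0.

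The loop from CG7560 to chrb had 26.6, 28.7, 32.5 and 25.3 normalised contacts in controls 1 to 4 and 2.59, 7.73, 8.55 and 8.43 after depletion. All 4 depleted libraries lay far below all 4 controls. The log2 fold change was -2.01 with an SE of 0.34 (edgeR adjusted p = 1.87e-04), and the call held in each of 17 alternatives, with adjusted p up to 0.00634. The other arms of the same triangle were lower in value but were not called. The scyl/CG7560 loop of 180.4 kb had 5.91 to 13.3 contacts in controls and 1.90 to 4.31 after depletion, with no overlap. Its log2 fold change was -1.72 with an SE of 0.51 (edgeR adjusted p = 0.0505). The raw counts were 11, 7, 3 and 11 in controls 1 to 4 and 5, 3, 2 and 2 in GAF-deGradFP 1 to 4. This separation therefore rests on few contacts. The outer scyl/chrb loop had 16.9 to 35.7 in controls and 4.31 to 23.2 after depletion, and the groups overlapped through GAF-deGradFP 4 (log2 -0.87 with SE 0.34, edgeR adjusted p = 0.149). The 3 loops share anchors, so they are not independent.

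At smal/Ddr contacts were 27.8, 35.5, 19.5 and 31.8 in controls and 3.45, 8.50, 11.4 and 20.0 after depletion. The groups overlapped only in that GAF-deGradFP 4 lay just above control 3. The log2 fold change was -1.52 with an SE of 0.33 (edgeR adjusted p = 0.00589); without GAF-deGradFP 1, control 2 or control 4 the call was lost, with adjusted p up to 0.105. The loop between upd2 and upd1, genes for JAK/STAT ligands, had 32.6, 59.1, 42.2 and 27.7 in controls and 22.4, 23.2, 17.1 and 24.2 after depletion. The depleted libraries were below the controls and closer together (log2 -0.89 with SE 0.25, edgeR adjusted p = 0.0477). This call lies at the threshold and was lost in 9 of 17 alternatives, with adjusted p up to 0.379.

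The loop that rose joins 21898801 to 21900400 and 22023601 to 22025200 on 2L and matches the disc loop labelled tio, a zinc finger gene paralogous to tsh. Its contacts were 25.4, 16.9, 16.2 and 22.8 in controls and 40.5, 37.1, 36.1 and 43.2 after depletion, so every depleted library was above every control (log2 0.90 with SE 0.23, edgeR adjusted p = 0.0237). The call was lost in 8 of 17 alternatives, with adjusted p up to 0.151. A neighbouring loop that ends at nearly the same anchor, tsh/CG11629 (70.8 kb), had 22.7 to 35.5 contacts in controls and 45.3 to 62.9 after depletion. These groups did not overlap either, at a log2 fold change of 0.73 with an SE of 0.21 (edgeR adjusted p = 0.0505).

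**Figure D2:**
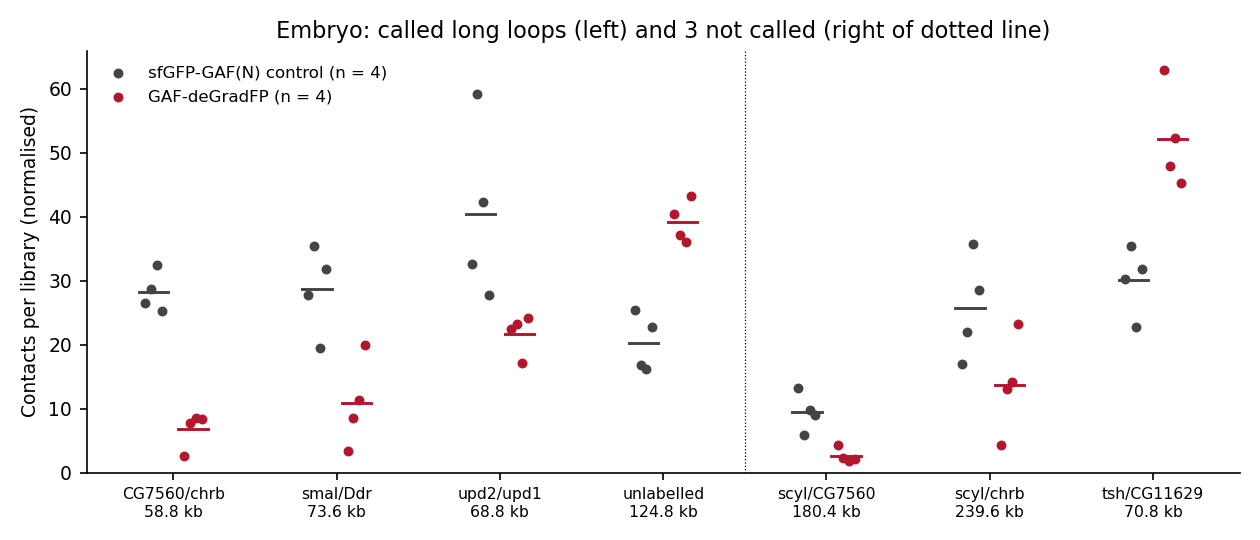
Normalised contacts per library (y axis) at the 4 called long embryo loops, left of the dotted line, and at 3 that were not called, right of it. Points are libraries and short lines group means, grey for sfGFP-GAF(N) control (n = 4) and red for GAF-deGradFP (n = 4). At CG7560/chrb the depleted libraries sit at 2.59 to 8.55, below controls at 25.3 to 32.5; at the unlabelled 124.8 kb loop they sit above.

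The number of calls depended on single embryo libraries. Without GAF-deGradFP 4, the library that stood apart, 9 long loops were called lower and 2 higher, and the 4 loops called with all libraries were among these 11. Without GAF-deGradFP 1 or without control 2 CG7560/chrb was the 1 long loop called lower. No rise was called without GAF-deGradFP 1, 2 or 3, or without control 2, 3 or 4. The unlabelled 52.8 kb loop on 2L, the strongest long embryo loop, shows the spread: it had 126 to 181 contacts in controls and 75.8, 57.9, 95.0 and 131 in GAF-deGradFP 1 to 4. GAF-deGradFP 4 alone reached the range of the controls. The log2 fold change was -0.75 with an SE of 0.23 (edgeR adjusted p = 0.0546). At an unadjusted p under 0.05 there were 18 long loops, 11 lower and 7 higher.

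By kind, 0 of 17 transcription factor loops and 2 of 7 ligand, receptor and guidance loops were called lower in embryos. Of the TOR and growth loops 1 of 4 was called lower, where 2.15% of all embryo loops were. The lists behind the kinds were chosen with earlier results known and name genes of the called loops. These counts therefore do not show that a kind depends more on GAF. The kinds' median log2 fold changes were 0.09, 0.15 and -1.29, against 0.04 over all loops. The last group holds the 3 scyl, CG7560 and chrb loops and Myc/CG12535, which had a log2 fold change of -0.51 (edgeR adjusted p = 0.475). The BTB-domain pair bab1/bab2 had 17.1 to 52.0 contacts in controls and 6.03 to 28.5 after depletion, with overlap (log2 -0.71, edgeR adjusted p = 0.311). The other 6 divided loop sets ranged from -0.46 to 0.48 over 18 loops, with a smallest edgeR adjusted p of 0.456. The 3 falls lay between 50 and 80 kb and the rise above 80 kb.

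To ask whether the POZ domain matters for long loops, delta-POZ discs were compared with Halo-Trl. Of the 108 long loops 7 fell and 0 rose, where 4.31% of all 209 disc loops were called lower and 0 higher. The falls were at chrb, esg/wor, scyl/chrb, smal/Ddr, bab1/bab2, kek1 and CG14372, with log2 fold changes from -1.55 to -0.73. DESeq2 also gave 0 rises, and at an unadjusted p under 0.05 there were 13 lower and 1 higher. The median log2 fold change was -0.03 for long, 0.06 for short and 0.02 for all loops.

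At the 57.6 kb chrb loop the Halo-Trl libraries had 128 and 122 normalised contacts, and 42.3 and 42.6 were left in the delta-POZ libraries. The replicates of each genotype were close together and the genotypes far apart (log2 -1.55 with SE 0.21, edgeR adjusted p = 6.63e-11). The loop that reaches on to scyl, 240.0 kb long and sharing the chrb anchor, fell from 78.2 and 87.4 to 36.0 and 33.9 contacts (log2 -1.25 with SE 0.23, edgeR adjusted p = 5.66e-06). The enclosing 286.8 kb loop had 93.4 and 62.1 against 54.0 and 47.0. Its groups did not overlap, but it was not called (log2 -0.62 with SE 0.22, edgeR adjusted p = 0.0981).

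Among transcription factor genes, esg and wor encode Snail-family zinc finger proteins, and their loop of 93.6 kb had 91.5 and 99.7 contacts with full-length GAF against 40.2 and 35.7 without the POZ domain (log2 -1.34 with SE 0.22, edgeR adjusted p = 3.69e-07). The bab1/bab2 loop of 75.2 kb joins a pair of genes that pattern limbs and pigment, and it had 118 and 142 contacts against 59.2 and 67.0 (log2 -1.04 with SE 0.19, edgeR adjusted p = 5.66e-06). In both, each delta-POZ library was below each Halo-Trl library. These were 2 of 25 transcription factor loops, where 4.31% of all disc loops were called lower. The other loops of this kind kept between -0.72 (tsh/tio) and 0.33 (H15/mid), and the kind's median was -0.04.

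Among receptor genes, the smal/Ddr loop of 72.8 kb had 66.7 and 82.2 contacts in Halo-Trl discs against 25.4 and 40.0 (log2 -1.16 with SE 0.23, edgeR adjusted p = 1.83e-05). The loop at kek1, a transmembrane inhibitor of EGFR, is the shortest of the 7 at 31.6 kb and had 144 and 139 against 73.0 and 70.5 (log2 -0.98 with SE 0.19, edgeR adjusted p = 1.14e-05). The groups were separate at both. The 88.8 kb loop labelled CG14372, named side-IV in the RNA table and a member of a family of immunoglobulin-domain proteins, was the strongest of the 7, with 293 and 236 against 171 and 148 (log2 -0.73 with SE 0.16, edgeR adjusted p = 2.76e-04). Its call was lost without Halo-Trl 1 or without delta-POZ 2, with adjusted p up to 0.107; the calls of the other 6 held in each of 16 alternatives.

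**Figure D3:**
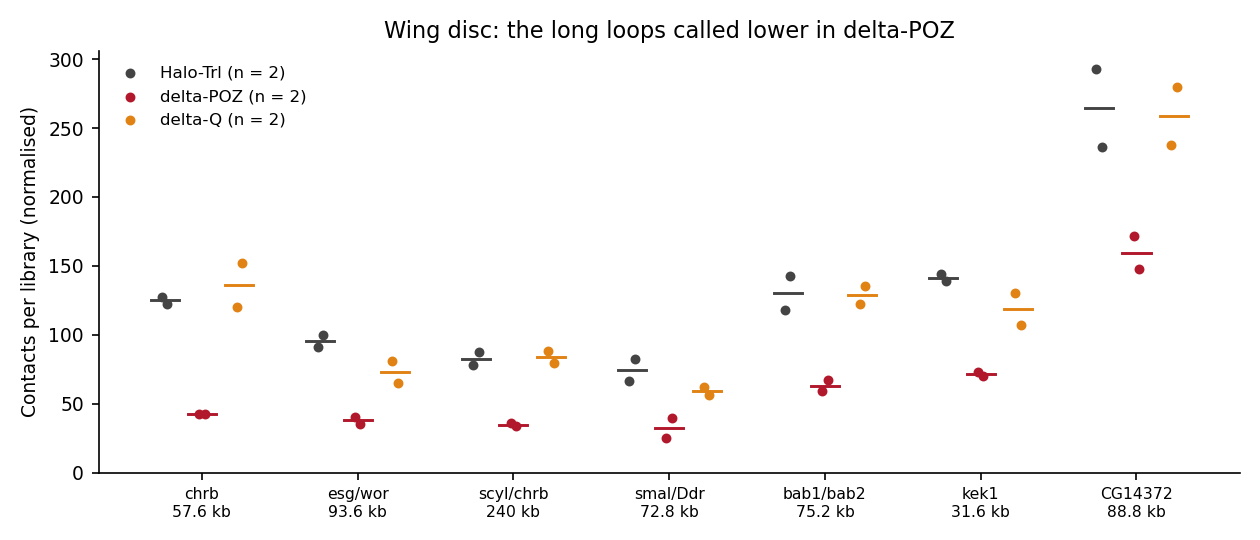
Normalised contacts per library (y axis) at the 7 long disc loops called lower in delta-POZ, ordered from the largest fall (chrb, left) to the smallest (CG14372, right), with anchor distance below each name. Points are libraries and short lines means of n = 2, grey for Halo-Trl, red for delta-POZ and orange for delta-Q; at each loop both delta-POZ points lie below the points of the other genotypes.

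The 7 falls were spread over the range of distances and of contact levels. They included the second longest loop of the list and 1 only just above 30 kb, and among the long loops they ranked from 9th to 82nd by contacts. Median log2 fold changes were lowest in the loops of 80 kb or more, at -0.19. Across the 108 long loops the log2 fold change and the distance had a Spearman's rho of -0.19, in the same 4 libraries. Long loops without a call had a median of -0.02 and an SD of 0.23, and short loops without a call had 0.06 and 0.19; long loops also had fewer contacts. The 4 divided sets of discs, whose 12 loops ranged from -0.42 to 0.33, held no call (smallest edgeR adjusted p = 0.532).

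**Figure D4:**
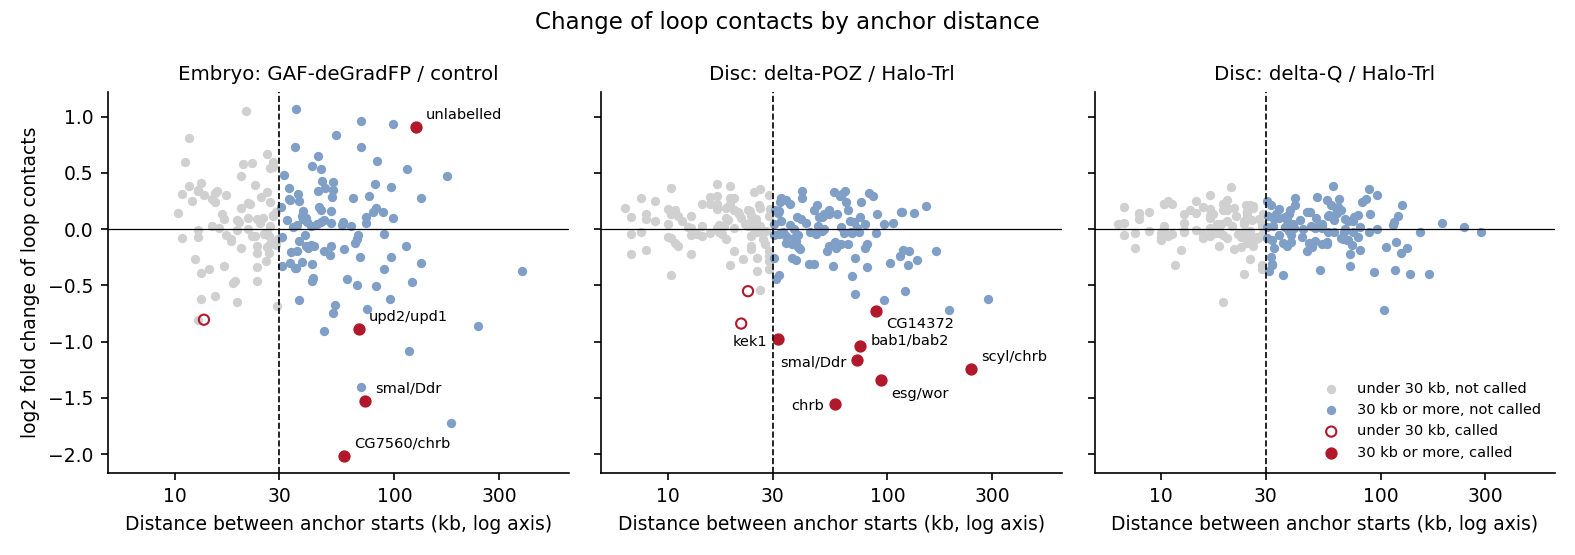
Log2 fold change of loop contacts (y axis) against the distance between anchor starts in kb (x axis, log scale) for GAF-deGradFP against control embryos (left), delta-POZ against Halo-Trl discs (middle) and delta-Q against Halo-Trl discs (right). Each point is a loop; red marks an edgeR adjusted p under 0.05, open for short and filled for long loops. The 7 filled points of the middle panel lie between -1.55 and -0.73, and the right panel has no red point.

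In delta-Q discs, compared with the same Halo-Trl libraries, 0 of 108 long loops were called in either direction, and 0 of all 209 loops. DESeq2 gave 0 as well, and 2 long loops had an unadjusted p under 0.05. These were the 103.2 kb loop at Rpt4r, a gene related to proteasome subunits, at log2 -0.72 (edgeR adjusted p = 0.369), and the 60.8 kb loop at Irk3, a potassium channel gene, at 0.38 (edgeR adjusted p = 0.988). The median log2 fold change of long loops was 0.01. At the 7 loops that fell in delta-POZ, the delta-Q values were 0.12 for chrb, 0.02 for scyl/chrb, -0.02 for bab1/bab2, -0.03 for CG14372, -0.25 for kek1, -0.33 for smal/Ddr and -0.38 for esg/wor. Both delta-Q libraries were below both Halo-Trl libraries at kek1, smal/Ddr and esg/wor (130 and 107, 62.2 and 56.7, 81.4 and 65.2 contacts).

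The deletions were then compared directly. Delta-Q exceeded delta-POZ at 7 long loops and fell short of it at 0, with 4.31% of all disc loops called higher. They were the 7 loops named above, from log2 0.70 at CG14372 (edgeR adjusted p = 0.00134) to 1.67 at chrb (edgeR adjusted p = 3.49e-12), with 1.27 at scyl/chrb and 1.02 at bab1/bab2. This comparison uses the same delta-POZ libraries as the one above, so the shared names are no second observation. DESeq2 called 4 of them and left out esg/wor, kek1 and smal/Ddr, and without delta-Q 1 there were also 4. At an unadjusted p under 0.05, 14 long loops were higher and 3 lower, and DESeq2 gave 0 lower.

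At tsh and tio, 3 long disc loops span the region in which 2 embryo loops had higher values after depletion. In delta-POZ the log2 fold changes were -0.58 at tsh (70.8 kb, edgeR adjusted p = 0.107), -0.72 at tsh/tio (190.4 kb, edgeR adjusted p = 0.107) and -0.19 at tio (124.8 kb, edgeR adjusted p = 0.750). At the tsh loop the Halo-Trl libraries had 72.5 and 99.7 contacts, delta-POZ had 43.4 and 70.5, and delta-Q had 96.1 and 85.7. Delta-POZ was below Halo-Trl at tsh and at tsh/tio, and the groups overlapped at tio. In delta-Q the values were 0.07, 0.05 and 0.22. Embryo and disc changes differ in tissue, tag and kind of GAF loss, and their difference was not tested.

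Of the 40 pairs found in both tissues, 6 held a call in either. The values, embryo depletion first and delta-POZ second, were -2.01 and -1.55 at CG7560/chrb, called in both, and -1.52 and -1.16 at smal/Ddr, called in both. They were -0.87 and -1.25 at scyl/chrb, -0.71 and -1.04 at bab1/bab2, and 0.15 and -0.73 at CG14372, called only in discs. The tio loop, called only in embryos, had 0.90 and -0.19. The Netrin pair NetA/NetB was called in neither, at -0.62 and -0.63. Whether these effects differ between the tissues was not tested.

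RNA of the genes named at long disc loops was measured in discs. Of 86 labels 85 matched the RNA table, giving 82 genes, of which 74 were expressed enough to test. In delta-POZ against Halo-Trl 5 of them fell (6.76%) and 6 rose (8.11%), where 5.20% and 4.93% of all 10359 genes tested did so; the anchor genes had a median log2 fold change of 0.16 and all genes -0.01. In bulk discs, fewer cells of a type and less RNA per cell cannot be told apart.

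At the 7 loops that fell in delta-POZ, chrb and Ddr also fell in RNA. The level of chrb was 854, 978 and 963 CPM in Halo-Trl and 449, 388 and 354 CPM in delta-POZ, a log2 fold change of -1.23 with an SE of 0.15 (edgeR adjusted p = 0.00103). Ddr had 16.1, 21.2 and 21.8 CPM against 3.77, 7.35 and 2.02 CPM (log2 -2.17 with SE 0.42, edgeR adjusted p = 0.0113). In both the groups were far apart, and both calls held in each of 13 alternatives. Ddr overlaps AANATL2, CG13983 and other genes, so its reads are less certain. The partner genes at the other anchors were not called: scyl had 1476, 1790 and 1629 CPM in Halo-Trl and 2430, 1886 and 1978 CPM in delta-POZ (log2 0.36, edgeR adjusted p = 0.177), and smal had a log2 fold change of 0.21 (edgeR adjusted p = 0.412). Nor were bab1 (0.73), bab2 (-0.06), esg (0.30), kek1 (0.18) and side-IV (0.04), all at edgeR adjusted p of 0.103 or more. The esg partner wor had at most 1.46 CPM in any library, with 20 reads over the Halo-Trl libraries.

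Among genes at long loops that were not called, tio fell most. It had 83.7, 99.9 and 96.0 CPM in Halo-Trl, 11.8, 13.5 and 13.0 CPM in delta-POZ and 28.5, 30.5 and 31.2 CPM in delta-Q. The 3 genotypes did not overlap, and log2 fold changes were -2.87 (SE 0.11, edgeR adjusted p = 1.22e-06) in delta-POZ and -1.63 (SE 0.11, edgeR adjusted p = 9.72e-05) in delta-Q. A non-coding gene overlaps tio. Its loop partner tsh had log2 fold changes of -0.15 and 0.14 (edgeR adjusted p = 0.456 and 0.891).

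The zinc finger genes elB and noc, joined by an 80.8 kb loop, moved apart in delta-POZ. In Halo-Trl elB had 49.7, 40.8 and 52.7 CPM and in delta-POZ 12.8, 12.5 and 12.7 CPM (log2 -1.91 with SE 0.16, edgeR adjusted p = 1.84e-04). Its neighbour noc had 129, 118 and 120 CPM against 282, 271 and 212 CPM (log2 1.06 with SE 0.13, edgeR adjusted p = 0.00106). All delta-POZ libraries were below Halo-Trl at elB and above it at noc. The elB/noc loop itself had 34.3 and 62.1 contacts with full-length GAF and 32.8 and 43.5 without the POZ domain, which overlap (log2 -0.33 with SE 0.22, edgeR adjusted p = 0.620).

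The other rises were odd, a zinc finger patterning gene (log2 0.84, edgeR adjusted p = 0.0104), nAChRalpha3, an acetylcholine receptor subunit (2.48, edgeR adjusted p = 0.00710), Cht6, a chitinase gene (0.65, edgeR adjusted p = 0.0223), Ggamma30A and CG43737. Their loops were not called, with log2 fold changes from -0.44 (Cht6) to 0.30 (nAChRalpha3). Ggamma30A, a G protein subunit, had 0.134, 0.207 and 0.108 CPM in Halo-Trl and 0.203, 19.9 and 0.978 CPM in delta-POZ. CG43737 had 2 reads over the Halo-Trl libraries and 0.377, 11.6 and 0.415 CPM in delta-POZ. Both were far higher in delta-POZ 2 than in the other delta-POZ libraries and were not called without it. In that library 3 neuron markers (elav, nSyb, brp) summed to 287 CPM, against 5.45 and 5.84 CPM in the other delta-POZ libraries and 52.5 to 75.3 CPM in Halo-Trl; their part in these values was not tested. The call of odd was lost without Halo-Trl 3 (edgeR adjusted p = 0.0525), and that of Cht6 without any 1 Halo-Trl library or delta-POZ 1 or 3, with adjusted p up to 0.0938. Pdk1, a kinase of insulin and TOR signalling, fell slightly (-0.36, SE 0.09, edgeR adjusted p = 0.0281) and lost its call in 7 of 13 alternatives. Without Halo-Trl 3 the number of anchor genes called higher was 2 and without Halo-Trl 2 it was 3.

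In delta-Q against Halo-Trl tio was the single anchor gene called lower and 0 were called higher, where 0.261% and 0.396% of all genes were called. At an unadjusted p under 0.05 there were 9 anchor genes, and DESeq2 called 2 higher. The RNA of chrb had a log2 fold change of -0.25 (edgeR adjusted p = 0.794), elB of -0.36 (edgeR adjusted p = 0.611) and noc of 0.19 (edgeR adjusted p = 0.838). The 4 fat body markers varied widely within genotypes, from 5.12 to 1982 CPM in Halo-Trl, 10.9 to 26.9 CPM in delta-POZ and 328 to 2711 CPM in delta-Q. The 3 neuron markers summed to 5.42 to 11.3 CPM in delta-Q, below the 52.5 to 75.3 CPM of Halo-Trl without overlap. The 3 trachea markers summed to 572 to 696 CPM in Halo-Trl, 543 to 690 CPM in delta-Q and 706 to 767 CPM in delta-POZ, so that delta-POZ lay above the others. This sum mainly follows vvl, at a median of 615 CPM over the libraries, against 58.3 CPM for trh and 10.3 CPM for btl. The gene vvl is also named at a long disc loop, so the sum does not measure tracheal cells alone. The 4 haemocyte markers summed to 109 to 275 CPM in Halo-Trl, 139 to 551 CPM in delta-POZ and 213 to 674 CPM in delta-Q. These groups overlapped. The part of fat body, neurons, trachea and haemocytes in the RNA results was not tested.

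**Figure D5:**
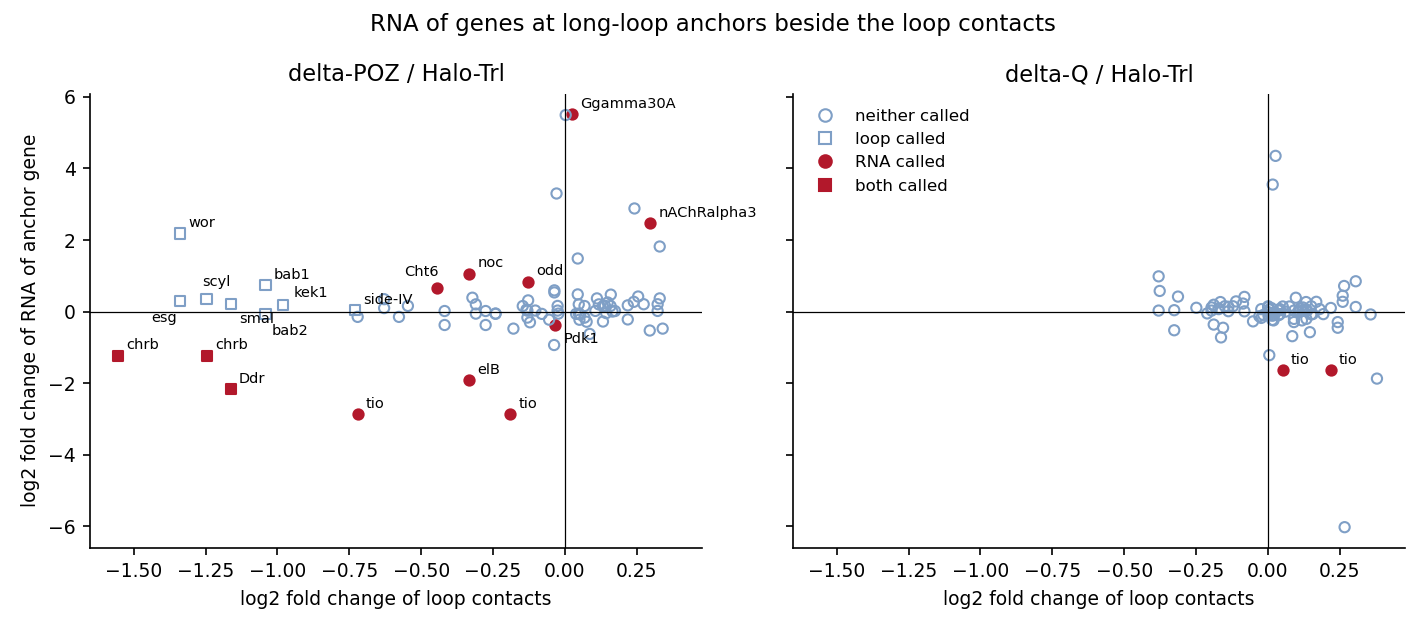
Log2 fold change of RNA of each gene named at a long disc loop (y axis) against the log2 fold change of contacts of that loop (x axis), for delta-POZ (left) and delta-Q (right) against Halo-Trl. A point is a gene at a loop, so a gene with 2 loops appears at each; squares mark called loops and red marks called RNA, and CG43737 is left out. In delta-POZ chrb and Ddr are red squares, while tio and elB are low in RNA at loops that were not called.

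In the authors' deposited table for embryos, 2 long loops had an adjusted p under 0.05 and a negative log2 fold change, CG7560/chrb (-2.07) and smal/Ddr (-1.52), and 0 long loops a positive one. The authors' deposited table for delta-POZ has 7 long loops lower and 0 higher, with the same 7 names as above and log2 fold changes from -0.73 (CG14372) to -1.56 (chrb). In the authors' deposited table for delta-Q, 0 long loops pass in either direction.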

How the data were processed

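Contact maps came from 8 embryo and 6 wing disc libraries and RNA-seq from 9 wing disc libraries; CUT&Tag samples were not analysed here. The submitters' processing notes name BWA, bedtools and DESeq2 for contact maps and featureCounts and DESeq2 for RNA-seq; the genome build and the versions are, in the sources used here, not given. The loop and RNA tables both hold raw counts as deposited by the authors, and 6 empty embryo cells were read as 0. The loop lists give anchor positions as deposited by the authors, printed 1-based; gene labels come from the authors' comparison tables, which per the file headers also hold a log2 fold change and a p-value per loop. Columns named wt were read as Halo-Trl, GAF_KO as GAF-deGradFP and GFP_GAF as control.

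Counts were tested with edgeR 4.0.16 (R 4.3.3; glmQLFit and glmQLFTest, TMM), genotype the only term, over all loops with at least 10 contacts in total, which kept every long loop, or all genes passing filterByExpr. P-values were adjusted by Benjamini-Hochberg over the whole table and called under 0.05. SE was derived as log2 fold change over the root of F. Normalised contacts are counts over relative effective library size. CPM use effective library sizes. Normalising over loops removes a shift common to all loops. Depth per library bounds precision; SDs are over libraries. Named loops are those called, the 5 strongest, 3 longest and 2 nearest each side of 30 kb per tissue, up to 4 per gene list, matched loops called in either tissue and 3 near misses per comparison; loops of called genes were added after their values were seen. Named genes are those at called loops and up to 10 other called anchor genes. The members and lists were chosen with earlier results of these data known. Alternatives were other scalings, filters and thresholds, removal of each library's distance trend, DESeq2 1.42.0, replicate blocks and leaving out each replicate; the crossed block and summing controls 2 and 3 were added after the data were seen. The tests were tried on simulated data in which no library stood apart as GAF-deGradFP 4 did, so the trial does not cover that case. Gene synonyms and overlaps came from a RefSeq gene table.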

Additional observations from a re-analysis of the deposited data

Results flagged for a closer look

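At CG7560/chrb, GAF-deGradFP 1 had 2.59 normalised contacts, far from the other depleted libraries at 7.73 to 8.55, so that its gap to the nearest of them was most of the group's range. Of 48 groups of 4 embryo libraries checked at named loops this 1 was picked out, where chance alone picks about 1 group in 20. The call of this loop held without that library.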

How the results depend on the processing

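Across single loops and genes, 2377 alternative values lost 63 calls, gained 20 and reversed the direction of 0 called values; 162 changed sign where no call was made either way. Embryo falls numbered 3; DESeq2 size factors gave 5, a threshold of 0.1 gave 6, and leaving out each replicate gave 1 to 9. The embryo rise (1) became 2 with plain totals, with distance trends removed, with at least 50 contacts and at 0.1, became 0 with a replicate block and with DESeq2, and was 0 to 2 when replicates were left out. Delta-POZ falls numbered 7 to 8 in the alternatives run at the 30 kb limit, 9 from 20 kb and 6 from 50 kb, and delta-Q gave 0 calls in all. Delta-Q above delta-POZ numbered 7, but 4 with DESeq2 and 4 to 7 without single replicates. The embryo share difference of -1.56 percentage points was -0.41 from 20 kb, where the groups overlapped. Anchor genes called higher in delta-POZ (6) were 2 to 6 without single replicates, and those in delta-Q (0) were 2 with DESeq2 and 0 to 1 without single replicates. The cause of these moves was not tested. Same-numbered libraries did not deviate together (correlations of -0.06 to 0.13 in embryos, -0.14 and -0.26 in discs against Halo-Trl, -0.29 to 0.14 in RNA). In discs, with n = 2, the deviations within a genotype mirror each other, so this check cannot exclude a batch shared crosswise. The labels do not state that libraries of the same number share a batch. With that number as replicate block, embryos gave 3 falls, of which, with 0 rises, 2 were among the 4 main calls; delta-POZ gave 7 falls and delta-Q against delta-POZ 7 rises. A crossed block gave 8 falls in delta-POZ and 0 in delta-Q. With controls 2 and 3 summed, embryos gave 3 falls and 1 rise, 3 of these 4 among the main calls. Embryo depth, down to 1715 contacts, limits single long loops; intervals of n = 2 discs rest on a spread shared by 3 genotypes.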
